A study of Mus musculus with 4 samples.

Results

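Genes for the proteins of the mitochondrial ribosome were compared between the atrioventricular (AV) junction and the ventricular region of the embryonic mouse heart. Members were all genes whose array symbol is Mrpl or Mrps followed by digits and an optional letter, on probe sets with a single annotated symbol, each read from its probe set with the highest mean over the 4 arrays. This gave 74 of 12393 genes, on 127 probe sets. They comprise 47 Mrpl genes, named for the large subunit, and 27 Mrps genes, named for the small subunit. A mean intensity of at least 100, on arrays scaled to a trimmed mean of 500, was reached by 73 of them, against 8410 of all genes, and these were tested. The remaining member, Mrpl38, read 105 and 113 in the AV junction and 67.7 and 97.3 in the ventricular region and was not tested.

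Both regions came from wild-type C57BL/6 embryos between embryonic days 10.5 and 11.0, pooled from about 80 hearts per region. Total RNA used was 230 ng for the AV junction and 250 ng for the ventricles. The RNA was amplified, labelled with biotin and read on MOE430A arrays, 4 in all, with replicates 1a and 1b in each region. The labels do not name separate pools within a region, so p-values cover the spread between arrays, which may be technical, and not the spread between hearts. In pooled tissue, fewer cells of a type and less RNA per cell cannot be told apart.

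Mitochondria make a small set of respiratory chain and ATP synthase subunits from their own genome, on a ribosome of their own. Its ribosomal RNA is encoded in mitochondrial DNA, while its proteins are encoded in the nucleus, made in the cytosol and imported. Some of these proteins have relatives in bacterial ribosomes, and others are found only in mitochondria. The heart depends on this machinery as working muscle builds up oxidative metabolism.

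In the AV junction 8 of the 73 members tested were lower than in the ventricular region and 0 were higher, while 65 did not pass (limma, Benjamini-Hochberg adjusted p of at most 0.05 over all 13403 probe sets tested). Across all genes 6.56% were lower and 8.47% higher by the same rule. The members' share was 11.0%, near that background. Over 5 equal bins of mean intensity, the share of all genes that were lower ran from 2.02% in the dimmest to 11.9% in the brightest. That brightest bin held 22 of the members, and the rest lay in bins with smaller shares. The lower genes were Mrpl36, Mrps24, Mrpl41, Mrpl12, Mrps33, Mrpl28, Mrpl46 and Mrpl16. Differences were small, and the fitted folds between the regions, on intensities with 50 added before the log, ran from 1.32 for Mrpl16 to 1.79 for Mrpl36. The median log2 fold (AV junction minus ventricular region, as throughout) was -0.15 over the members and -0.06 over all genes, and 55 of 73 members were below 0 against 55.2% of all genes. At an unadjusted p of at most 0.05, 17 members were lower and 2 higher, beside 1444 lower and 1344 higher of all 8410 genes tested. The plot of folds by subunit shows the whole family.

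**Figure D1:**
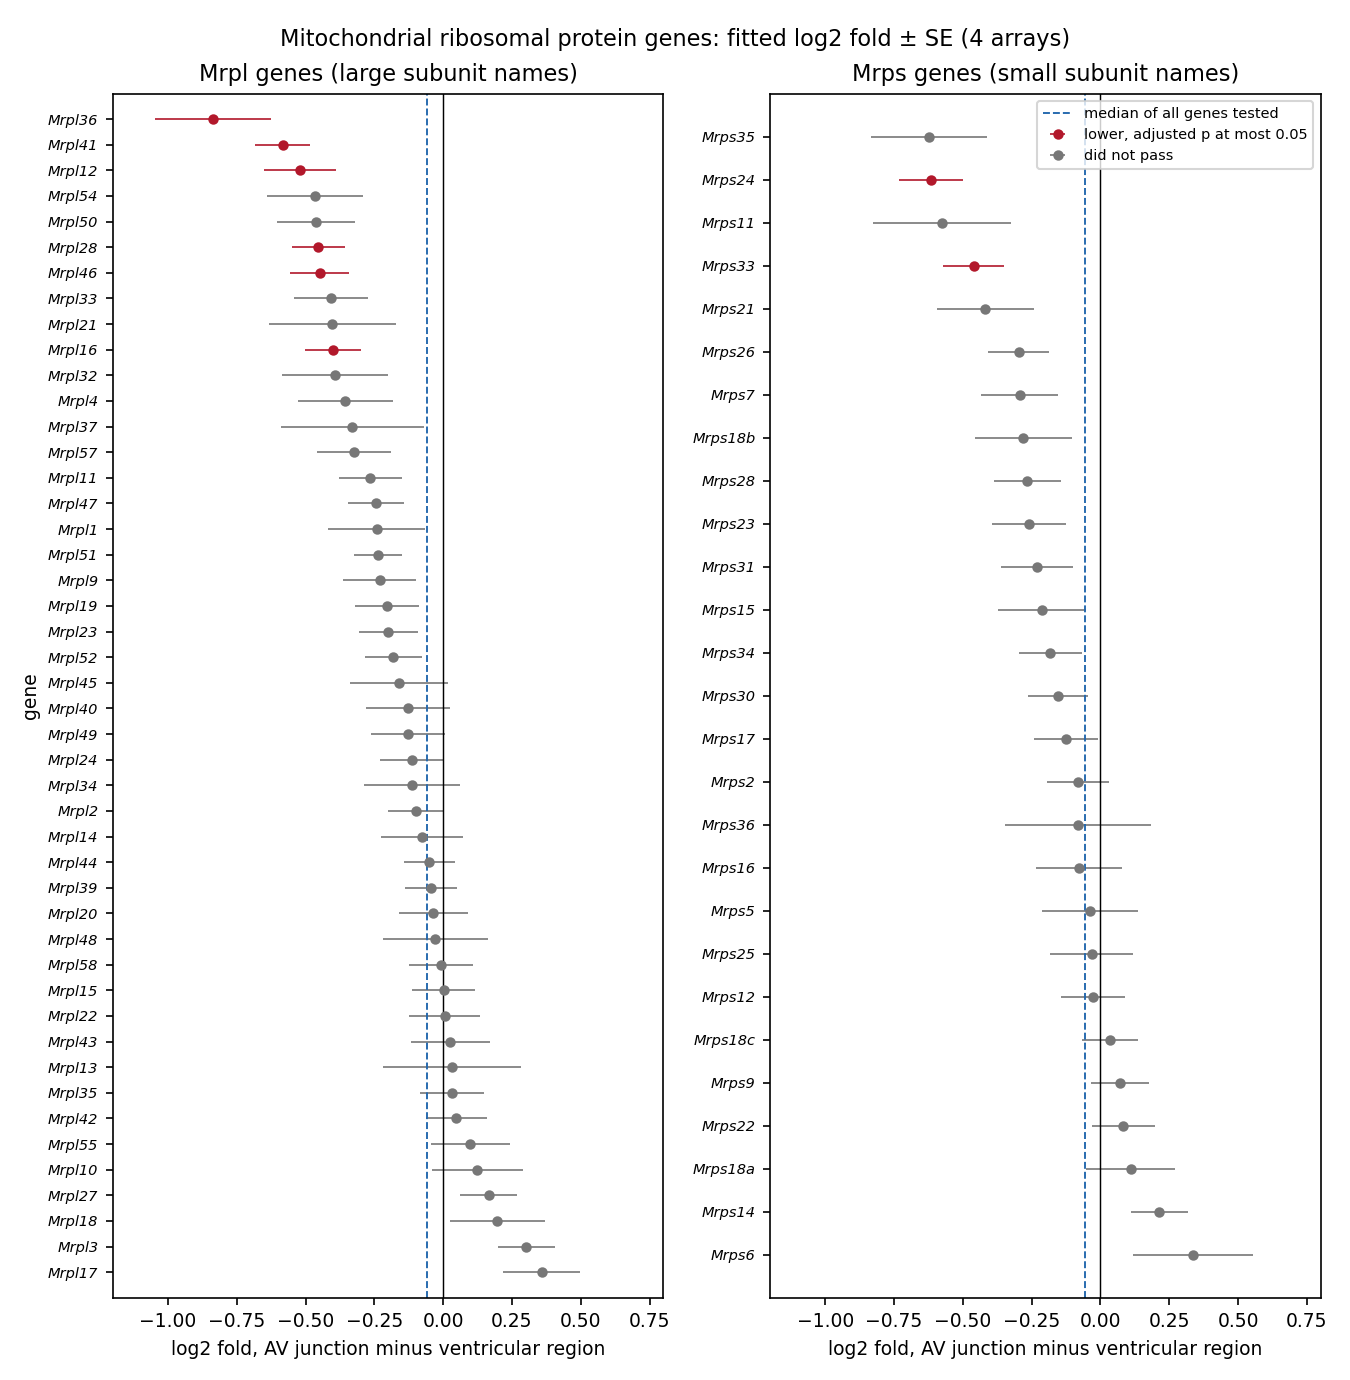
Fitted log2 folds (horizontal axis, AV junction minus ventricular region, points with SE bars from limma over 4 arrays) of the 46 Mrpl and 27 Mrps genes tested, ordered by fold. Red points passed and are all below 0; the dashed line is the median of all genes tested, -0.06, and 55 of 73 points lie below 0.

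Most of these calls were lost when an array was removed. When single arrays were left out, the members called lower numbered 2 without AV junction array 1a, 2 without AV junction array 1b, 3 without ventricular array 1a and 0 without ventricular array 1b, and 0 genes passed in every such fit. Scaling the arrays to a common median left Mrpl41 as the 1 lower member, made Mrpl3 higher (log2 fold 0.46, limma adjusted p = 0.0374) and gave a member median of 0.0040. The common median was taken over all non-control probe sets, also those below the floor. It moved the median log2 fold of all genes tested from -0.06 to 0.10. Quantile normalisation kept all 8 calls. The values as deposited kept them too, but their arrays were already on nearly the same scale. That fit is therefore no test of the scaling, and with the floor on unscaled values it tested 64 members. Without the intensity trend in limma 0 members were lower or higher (13 lower and 0 higher at an unadjusted p of at most 0.05), and without the floor on intensity 3 were lower.

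For the 4 lower genes with the largest folds, the 250 bases before the transcription start are shown, because the results turn on these genes; sequences are from RefSeq on GRCm38.p6, written on the strand of the gene. Capitals mark a match to a motif of NRF1, of ETS factors such as GABP (CCGGAAG) or of YY1 (AAGATGGCG). These factors are known to act on nuclear genes for mitochondrial proteins, and their motifs were searched on both strands of these 250 bases. A further 50 bases after the start were not searched, so matches there are not counted. The NRF1 motif allowed any base at a single position and is not identical to its reverse complement.
Mrpl36, chr13:73330759-73331008, plus strand: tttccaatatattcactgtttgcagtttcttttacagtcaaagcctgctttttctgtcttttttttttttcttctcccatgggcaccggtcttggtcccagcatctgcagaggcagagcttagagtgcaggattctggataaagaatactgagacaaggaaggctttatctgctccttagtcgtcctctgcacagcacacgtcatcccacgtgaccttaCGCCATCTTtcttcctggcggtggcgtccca
Mrps24, chr11:5707702-5707951, minus strand: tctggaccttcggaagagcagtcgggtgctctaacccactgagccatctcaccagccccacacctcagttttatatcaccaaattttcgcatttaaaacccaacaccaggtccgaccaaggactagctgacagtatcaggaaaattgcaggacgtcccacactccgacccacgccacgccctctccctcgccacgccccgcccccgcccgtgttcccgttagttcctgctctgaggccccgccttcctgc
Mrpl41, chr2:24975099-24975348, minus strand: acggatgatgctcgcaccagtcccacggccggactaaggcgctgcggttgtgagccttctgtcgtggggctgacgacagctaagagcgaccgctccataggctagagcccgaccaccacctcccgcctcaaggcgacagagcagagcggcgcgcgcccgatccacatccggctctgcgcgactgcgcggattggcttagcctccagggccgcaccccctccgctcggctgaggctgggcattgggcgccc
Mrpl12, chr11:120484387-120484636, plus strand: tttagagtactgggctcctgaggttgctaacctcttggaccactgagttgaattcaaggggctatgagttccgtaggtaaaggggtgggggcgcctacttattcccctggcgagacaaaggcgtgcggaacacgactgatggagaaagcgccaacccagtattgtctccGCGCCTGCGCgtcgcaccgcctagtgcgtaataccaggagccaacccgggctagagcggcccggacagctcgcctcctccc

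Mrpl36 carries a YY1 match that begins 31 bases before the start and Mrpl12 an NRF1 match that begins 81 bases before it, and the windows of Mrps24 and Mrpl41 hold no match. Over the 65 members with a window in the table, 9 (13.8%) held the NRF1 motif, 16 (24.6%) the ETS motif and 2 (3.08%) the YY1 motif. The shares over the 6838 genes tested that have a window were 9.55%, 15.7% and 1.46%. In cytosolic ribosomal, respiratory chain and proteasome genes the NRF1 shares were 2.38%, 16.1% and 19.4%. Their ETS shares were 40.5%, 19.4% and 29.0%, and their YY1 shares 2.38%, 1.61% and 0%, so these motifs are not particular to the members. Of the 8 lower members, 1 held the NRF1 motif, 0 the ETS motif and 1 the YY1 motif. The ETS motif lay in 16 of 57 members that were tested and did not pass, among them Mrpl17, Mrpl3 and Mrpl18, 3 of the 5 members with the highest folds. Members with an ETS match had a median log2 fold of 0.02 (16 genes) and those without one a median of -0.21 (49 genes). For the NRF1 motif the order was the other way, with -0.23 (9 genes) against -0.12 (56 genes), as for the YY1 motif, with -0.71 (2 genes) against -0.13 (63 genes). These are descriptions with no test. Folds by motif were taken for the members only, and not for all genes or the other families. The motifs were chosen after the folds had been seen.

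Among the lower members of the large subunit, Mrpl36 is the relative of the small bacterial protein L36. It read 434 and 265 in the AV junction against 676 and 620 in the ventricular region, so that the regions did not overlap but the AV arrays stood well apart from each other. Its log2 fold was -0.84 with an SE of 0.21 (limma, adjusted p = 0.0408), and it moved from -1.15 without AV junction array 1a (adjusted p = 0.0149) to -0.53 without AV junction array 1b (adjusted p = 0.106). It missed as well without ventricular array 1a (adjusted p = 0.158) and without ventricular array 1b (adjusted p = 0.115). Mrpl41, a protein with no bacterial relative, is the member whose call depended least on the processing. Its arrays read 5542 and 6230 in the AV junction and 8411 and 9267 in the ventricular region. The log2 fold was -0.58 with an SE of 0.10 (limma, adjusted p = 0.0115), and it passed in 12 of the 15 alternative fits. A further probe set of Mrpl41 passed as well, at 2169 and 2495 against 3031 and 3178 (log2 fold -0.41, adjusted p = 0.0442). Without AV junction array 1a or ventricular array 1b the brighter probe set missed, at adjusted p = 0.0567 and 0.0734.

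Mrpl12 encodes the stalk protein that recruits translation factors to the ribosome, and it is also known to bind the mitochondrial RNA polymerase. It read 444 and 431 in the AV junction and 634 and 665 in the ventricular region, with replicates close together in both (log2 fold -0.52, SE 0.13, adjusted p = 0.0405). Mrpl28, a relative of bacterial L28, read 1655 and 1714 against 2371 and 2280 (log2 fold -0.45, adjusted p = 0.0241). Of its other probe sets 1 passed at -0.55 (adjusted p = 0.0206), and the dimmest gave -0.31 and did not pass (adjusted p = 0.137). The sets that passed end in _x_at, so that without such sets the Mrpl28 call was lost. Mrpl46, specific to mitochondria, read 1553 and 1756 against 2225 and 2322 (log2 fold -0.45, adjusted p = 0.034). Mrpl16, whose bacterial relative sits near the site of peptide bond formation, read 3346 and 2983 against 4030 and 4347 (log2 fold -0.40, adjusted p = 0.0415). In each of these genes both AV arrays lay below both ventricular arrays, but genes that passed on these same arrays are picked for such a gap. Over all genes tested 34.7% had both AV arrays below both ventricular arrays. With 1 array left out, Mrpl12, Mrpl28 and Mrpl16 missed in all 4 such fits (adjusted p up to 0.154, 0.116 and 0.175), and Mrpl46 in all but that without AV junction array 1b (up to 0.14).

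In the small subunit Mrps24, the relative of the bacterial protein S3 at the entry of messenger RNA, read 838 and 827 in the AV junction and 1227 and 1384 in the ventricular region (log2 fold -0.62, SE 0.12, adjusted p = 0.0157). The arrays of the regions did not overlap on this probe set, which ends in _s_at, a suffix for probes shared between transcripts. A dimmer one gave 485 and 515 against 663 and 518 and did not pass (log2 fold -0.21, adjusted p = 0.388). It also ends in _s_at, so that without such sets Mrps24 had no value. Mrps33, specific to mitochondria, read 1036 and 957 against 1408 and 1371 (log2 fold -0.46, SE 0.11, adjusted p = 0.0339). Its AV arrays both lay below its ventricular arrays, but it and Mrps24 were likewise picked for passing on these arrays. Mrps24 missed without AV junction array 1b or ventricular array 1b (adjusted p up to 0.0907) and Mrps33 without any 1 of the 4 arrays (up to 0.137).

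**Figure D2:**
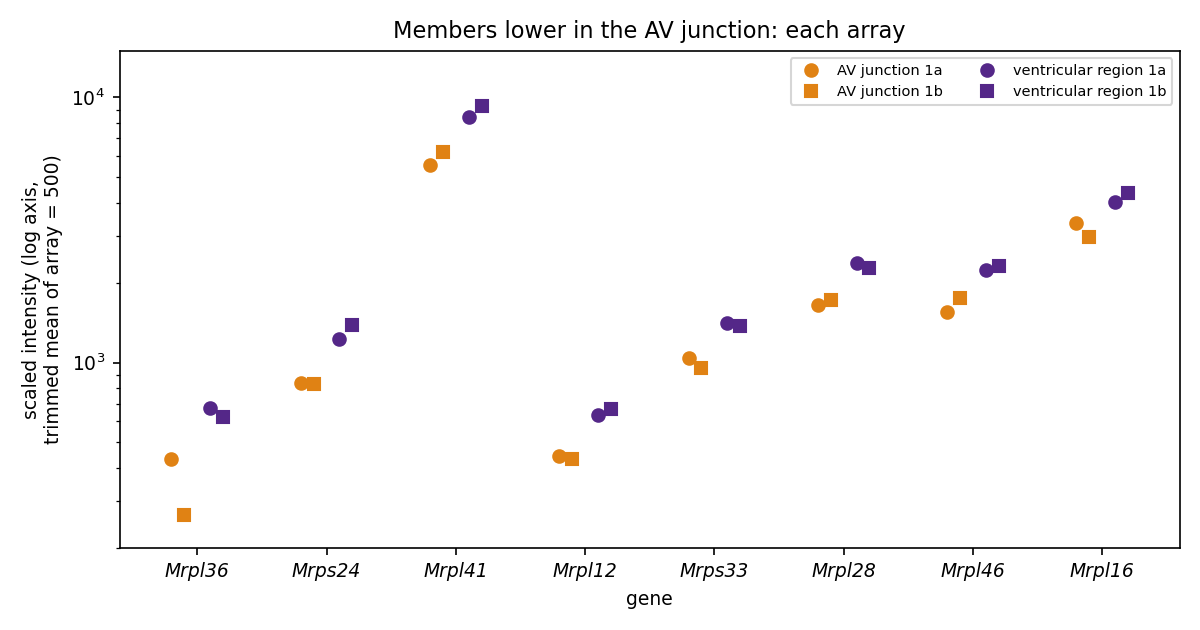
Scaled intensity (vertical log axis, trimmed mean of each array at 500) of the 8 members that were lower in the AV junction, 1 point per array, circles for replicate 1a and squares for 1b. In every gene both orange AV junction points lie below both purple ventricular points. The genes were picked for passing on these arrays, and 34.7% of all genes tested show the same order. The widest gap between replicates is in Mrpl36, 434 against 265. Levels of different genes are not comparable because they come from different probes.

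Of the members that did not pass, the 5 with the lowest folds were Mrps35, Mrps11, Mrpl54, Mrpl50 and Mrps21. Mrps35, specific to mitochondria, read 438 and 506 in the AV junction and 597 and 943 in the ventricular region (log2 fold -0.62, adjusted p = 0.0906). Its ventricular arrays differed widely, and it passed without ventricular array 1a (-0.93, adjusted p = 0.0377). Mrps11, a relative of bacterial S11, was dim, at 116 and 77.1 against 156 and 177 (log2 fold -0.58, SE 0.25). Mrpl54 and Mrpl50, both specific to mitochondria, gave log2 folds of -0.47 and -0.46, and Mrps21, a relative of bacterial S21, gave -0.42. Arrays of the regions did not overlap in any of these 5 genes, but the genes were picked for their low folds. Over all genes tested 62.4% showed no overlap.

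The 5 highest folds were those of Mrpl17, Mrps6, Mrpl3, Mrps14 and Mrpl18, all relatives of bacterial proteins of the same number. Mrpl17 read 1152 and 946 in the AV junction and 754 and 857 in the ventricular region (log2 fold 0.36, SE 0.14, adjusted p = 0.129). Mrpl3, whose relative helps to shape the catalytic centre of the large subunit, read 2866 and 2529 against 2188 and 2163 (log2 fold 0.30, SE 0.10, adjusted p = 0.0961). Mrps6, Mrps14 and Mrpl18 gave log2 folds of 0.34, 0.21 and 0.20, and the arrays of Mrpl18 overlapped. The other 55 members that did not pass lay between -0.41 (Mrpl33) and 0.17 (Mrpl27), with 42 of them below 0. Mrps36, now known as a component of the 2-oxoglutarate dehydrogenase complex rather than of the ribosome, was among these, at 762 and 1082 against 1284 and 721 (log2 fold -0.08, SE 0.26).

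Counted by arrays alone, 47 of 73 members had regions that did not overlap, beside 62.4% of all genes. Of the 73, 39 (53.4%) had both AV arrays below both ventricular arrays, and 8 (11.0%) had both above. Over all genes these shares were 34.7% and 27.7%. The members' summed intensity made up 0.559% and 0.549% of the total in the AV junction against 0.588% and 0.607% in the ventricular region. In such a sum the brightest probe sets weigh most, so it does not describe the members evenly. Mrpl41, already among the lower genes, averaged 5886 in the AV junction against 8839 in the ventricular region.

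Both subunits showed a similar picture. Of 46 Mrpl genes tested 6 were lower and 0 higher, with a median log2 fold of -0.14, and of 27 Mrps genes 2 were lower and 0 higher, with a median of -0.15. The names do not map exactly onto subunits, since the products of Mrps18a and Mrps30 are known to sit in the large subunit. Relatives of bacterial proteins in the large subunit had 4 of 28 lower (median -0.16), and large-subunit proteins specific to mitochondria 2 of 17 (median -0.16). In the small subunit 1 of 15 bacterial relatives (median -0.08) and 1 of 8 proteins specific to mitochondria (median -0.24) were lower. All 4 groups had 0 higher genes, and differences between them were not tested because members are not replicates.

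Probe sets of a gene did not always tell the same story. Of 22 members with at least 2 tested probe sets, 14 had folds of 1 sign on all of them and 8 had folds of both signs, and in 5 genes the calls differed, namely Mrpl13, Mrpl28, Mrpl48, Mrps9 and Mrps24. The single member probe set that was higher in the AV junction belongs to Mrps9, a relative of bacterial S9. It read 1608 and 1310 in the AV junction and 648 and 317 in the ventricular region (log2 fold 1.57, SE 0.28, adjusted p = 0.0124), while the brightest Mrps9 probe set read 1884 and 1680 against 1686 and 1694 (log2 fold 0.07) and the others gave 0.00 and 0.08. The discordant probe set ends in _x_at, the suffix for probes that can match other transcripts. Mrpl48 showed the reverse, with 1530 and 1153 against 1141 and 1612 on its brightest probe set, also an _x_at (log2 fold -0.03), and 674 and 515 against 981 and 1303 on the other (log2 fold -0.89, adjusted p = 0.0196). In Mrpl13 a dim _x_at probe set was lower (300 and 244 against 493 and 439, log2 fold -0.68, adjusted p = 0.0358), and the brightest had AV arrays of 2105 and 1119, so that its log2 fold of 0.03 became -0.41 without AV junction array 1a and 0.47 without AV junction array 1b. In all, 12 of 105 tested member probe sets were lower and 1 was higher. Mrpl28 and Mrpl41 each count with more than 1 lower probe set, so these are not 12 genes.

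Probe sets annotated with several symbols were not used for members, and 3 of them carry a Mrpl or Mrps symbol. The set shared by Ccdc142 and Mrpl53 was lower in the AV junction, at 930 and 995 against 1524 and 1474 (log2 fold -0.61, adjusted p = 0.0123). That shared by the predicted gene Gm6238 and Mrpl30 gave -0.26 and did not pass (adjusted p = 0.221), and that shared by Nme3 and Mrps34 was below the floor.

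Proteins of the mitochondrial ribosome with other names behaved in a mixed way. Chchd1, a small-subunit protein, was lower, at 2360 and 2480 in the AV junction against 3547 and 3929 (log2 fold -0.62, SE 0.10, adjusted p = 0.00937). Dap3, a GTP-binding protein of the small subunit first named for a role in cell death, gave 1508 and 1487 against 1347 and 1167 (log2 fold 0.25, adjusted p = 0.187). Ptcd3, a small-subunit protein with RNA-binding repeats, gave 0.37 (adjusted p = 0.235), and Gadd45gip1, of the large subunit, gave -0.41 (adjusted p = 0.192). Ict1, which frees stalled ribosomes, is on the array under its member name Mrpl58, at -0.01.

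The genes that serve this ribosome showed few calls. Over 5 lists together (translation factors, aminoacyl-tRNA synthetases, assembly and rRNA modification, mitochondrial DNA upkeep, and the proteins with other names), 47 non-member genes were tested, of which 1 was higher and 2 lower, with a median log2 fold of -0.17. The higher gene was Tfb1m, which methylates the small-subunit rRNA. It read 1382 and 1219 in the AV junction and 725 and 675 in the ventricular region (log2 fold 0.85, SE 0.12, adjusted p = 0.00604), opposite to the lower members. With any 1 array left out these lists again held 1 higher gene, and with probe sets ending in _x_at or _s_at removed, which removes that of Tfb1m, they held 0. Lower beside Chchd1 was Mettl17, a factor for assembly of the small subunit, at 348 and 452 against 675 and 643 (log2 fold -0.66, SE 0.16, adjusted p = 0.0339). The count of lower genes was 1 without AV junction array 1a, 1 without ventricular array 1a and 0 without ventricular array 1b.

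By list, 0 of 9 translation factors passed in either direction (median -0.27, 8 of 9 below 0), nor did any of 7 mitochondrial aminoacyl-tRNA synthetases (median -0.02) or of 10 genes of mitochondrial DNA upkeep and transcription (median -0.15). Among 17 assembly genes 1 was higher and 1 lower (median -0.08). The mitochondrial DNA-packaging factor Tfam read 1185 and 1191 against 1149 and 1199 (log2 fold 0.02, adjusted p = 0.925), with regions overlapping. Of 12 regulators of mitochondrial genes 0 were higher and 0 lower (median -0.0049). The levels of Nrf1 overlapped, at 837 and 995 against 940 and 756, while Gabpa, the DNA-binding subunit of GABP, gave 1162 and 905 against 811 and 715 (log2 fold 0.41, adjusted p = 0.115) and Yy1 gave 3306 and 3081 against 2663 and 2471 (log2 fold 0.31, adjusted p = 0.0773). At an unadjusted p of at most 0.05 the translation factors, synthetases, DNA upkeep genes and regulators had 2, 1, 2 and 0 lower genes and 0, 0, 0 and 2 higher ones.

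Set beside related families, the members had a median closer to 0 than nuclear genes for the respiratory chain and ATP synthase, some of whose subunits this ribosome makes. Of 75 such genes 26 were lower and 0 higher (34.7% lower, median log2 fold -0.33). The 3 largest changes were in Cox8b, a muscle form of a cytochrome oxidase subunit (log2 fold -1.21, dim in the AV junction at 73.4 and 58.7), Atp5e, of the ATP synthase (-1.06), and Uqcrc1, a core subunit of complex III. Uqcrc1 read 1079 and 1137 in the AV junction against 2256 and 2295 (log2 fold -1.01, adjusted p = 0.00143). Genes for the cytosolic ribosome had 12 of 46 lower and 0 higher (median -0.23), led by Rpl12 (-1.30), Rplp2 (-0.70) and Rpl22l1 (-0.66). Proteasome subunits had 0 of 35 lower and 1 higher, Psmd14 at 0.35 (median 0.03). Without AV junction array 1a, AV junction array 1b, ventricular array 1a and ventricular array 1b in turn, lower genes numbered 15, 14, 8 and 9 in the respiratory chain and 6, 5, 2 and 1 in the cytosolic ribosome. Without the trend in limma they numbered 7 and 1, without the floor 15 and 6, with median scaling 13 and 5, and with the replicate block 45 and 26. These families were compared by counts and medians, with no test of the difference. The share of lower genes was larger in the respiratory chain than among the members in all 16 fits, the reported one included, but it was larger among the members than over all genes in 11 of 16. The plot of folds by family and the plot by processing setting show both.

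**Figure D3:**
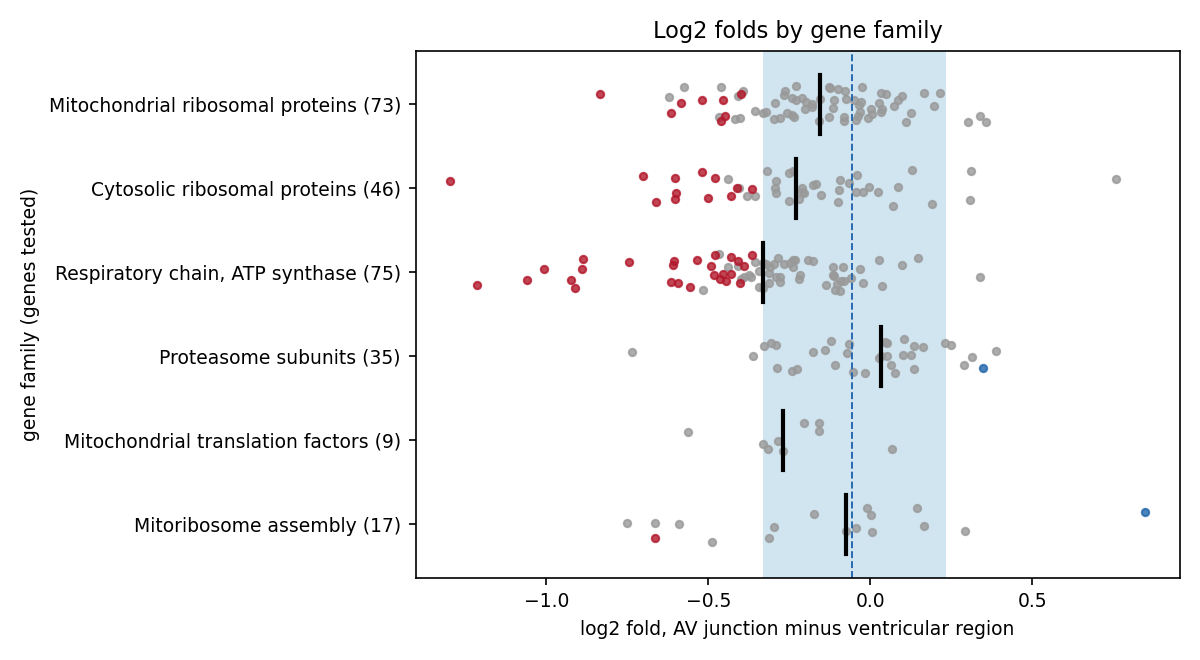
Log2 folds (horizontal axis, AV junction minus ventricular region) of single genes in 6 families, with the number tested in brackets; red passed lower, blue passed higher, grey did not pass, black bars are family medians. The band spans the middle 50% of all genes tested (-0.33 to 0.23) and the dashed line their median; the median of the respiratory chain (-0.33) lies further left than that of the mitochondrial ribosomal proteins (-0.15).

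**Figure D4:**
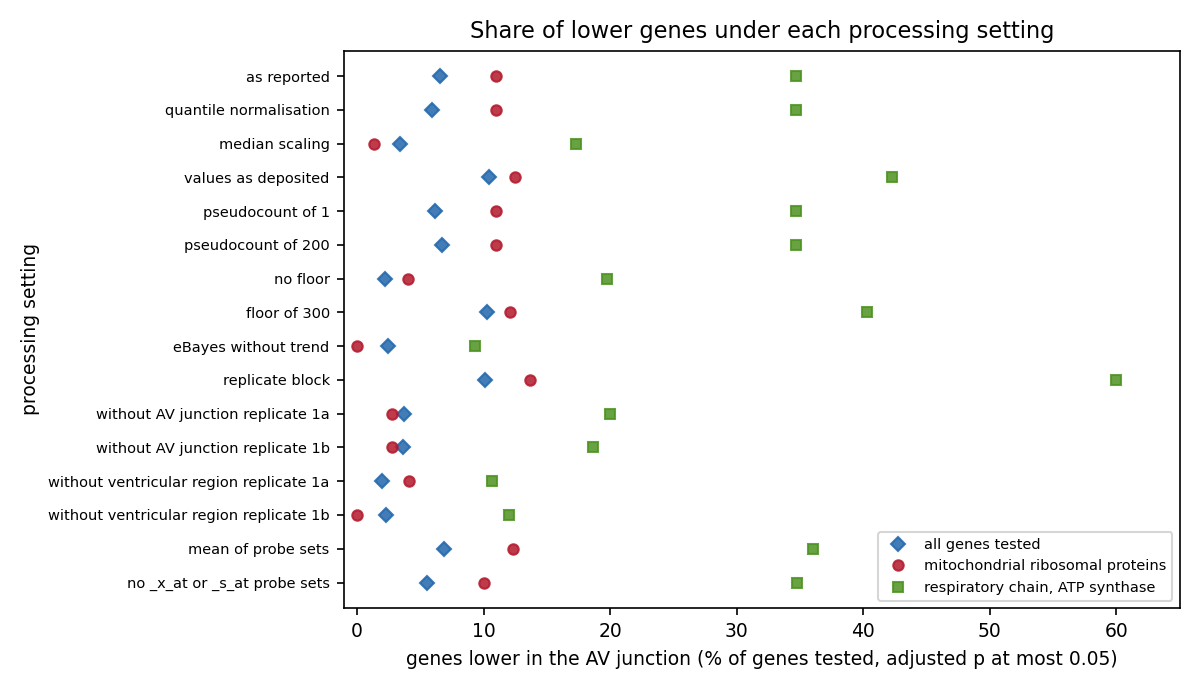
Share of tested genes called lower in the AV junction (horizontal axis, %) under the reported fit and 15 alternatives (vertical axis). Mitochondrial ribosomal proteins (red circles) range from 0 to 13.7%, on either side of all genes (blue diamonds), while respiratory chain genes (green squares) lie to the right of both in every fit.

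Brightness moved with the folds, the median log2 fold of all genes rising from -0.22 in the dimmest bin to 0.05 in the brightest. The members were brighter than most genes. The 5 bins of mean intensity, from dimmest to brightest, held 2, 6, 16, 27 and 22 members. In the brightest bin 4 of 22 members were lower, beside 11.9% of all genes there, and the medians were -0.09 and 0.05. In the next bin 2 of 27 were lower, beside 7.25% of all genes, with medians of -0.15 and 0.05. In the middle bin 2 of 16 were lower, beside 6.84% of all genes, with medians of -0.17 and -0.03. The next dimmer bin had 0 of 6 lower, and the members' median of -0.10 lay above that of all genes, -0.15. In the dimmest bin 0 of 2 were lower, with medians of -0.45 and -0.22.

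Other transcripts moved with region on the same arrays, and their part in the member folds was not tested. Of 16 cardiac muscle markers 8 were lower in the AV junction and 1, the atrial light chain gene Myl7, was higher, the largest folds being those of Nppa (-2.28), Myl2 (-1.41) and Myl3 (-1.07). Their summed intensity was 164912 to 171495 there against 239621 to 265150. Erythroid markers (6 of 9 lower, led by Hemgn, Alas2 and Slc4a1) summed to 41515 to 42723 against 78015 to 85310, and cushion mesenchyme markers (10 of 15 higher, led by Pdgfra, Twist1 and Prrx1) to 20945 to 23851 against 8419 to 8602. Hepatic and yolk sac markers were higher in 4 of 5, led by Afp (6.20), Ttr (3.36) and Rbp4 (1.38), and summed to 7322 to 7634 against 694 to 738. Endocardial markers had 2 of 7 higher (Nfatc1 and Tek), with Pecam1 and Tie1 at background on all 4 arrays, epicardial markers 1 of 6 lower (Krt19), and 0 of 9 proliferation markers passed in either direction. Of neural and crest markers only Sox10 was bright enough to test, at log2 fold 0.02. The brightest Bacillus subtilis control lay at 52.6 and 58.6 in the AV junction against 97.9 and 104 in the ventricular region, and all 74 members were above it on the AV arrays and 73 on the ventricular ones. The 3'/5' ratio of actin, a measure of RNA length, was 21.7 and 23.4 in the AV junction against 16.6 and 21.7 in the ventricular region. That of Gapdh was 16.3 and 15.0 against 17.4 and 18.4, with both AV arrays lower. On every array the 3' probes of both genes thus read many times brighter than the 5' probes. The part of the controls and of these ratios in the member folds was not tested either.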

How the data were processed

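The authors deposited 1 intensity per probe set and array, made with MAS5 per the submitters' processing notes; settings are not given in the sources used here. Arrays were brought to a mean of 500, trimmed by 2% at each end, 50 was added and log2 taken, and probe sets with a mean of at least 100 (13403) were fitted with limma 3.58.1 in R 4.3.3 (lmFit, eBayes with trend) on 4 arrays. P-values were adjusted by Benjamini-Hochberg over all of them, and a gene was called at 0.05. A gene was read from its brightest probe set. An exact permutation test of 2 arrays against 2 cannot give a p below 0.333, so none is reported for single values, and the number of arrays limits the precision. Members and lists were chosen with earlier results of these data known. Named members are those that passed, the 5 lowest and 5 highest folds among the rest, and those whose probe sets differ in call, with mitoribosomal proteins of other names and up to 3 of the largest changes that passed in each other list. Tfam, Nrf1, Gabpa, Yy1, Mrps36 and Myl7, the range ends Mrpl33 and Mrpl27, the probe sets with several symbols and markers named for not being measured were chosen after their values were seen. Other scalings, pseudocounts, floors, probe set rules, left-out arrays and a replicate block were tried.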

Additional observations from a re-analysis of the deposited data

How the results depend on the processing

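Of 765 values of list counts and medians under 15 alternatives, 582 kept their direction and stayed within the limits set (a count within 1.5 times, a median within the spread between arrays), and 183 did not; the cause was not tested. Each of the 8 lower members was called again under quantile normalisation, pseudocounts of 1 and 200 and a floor of 300. The same held for the mean of probe sets and the replicate block. It held too for values as deposited, whose arrays were already on nearly the same scale. Without the trend, 13 members were lower and 0 higher at an unadjusted p of at most 0.05, and without ventricular array 1b 11 and 1. Under median scaling 80.8% of calls over all genes were higher, against 56.3% as reported and 57.1% with quantile normalisation. Medians that were negative and turned positive with it were those of all genes, the members, Mrpl, Mrps, bacterial relatives in both subunits, proteins with other names, synthetases, assembly, DNA upkeep and regulators. The replicate block gave 10 lower members, the 8 with Mrpl11 and Mrps35 added, but deviations of same-numbered arrays correlated at only r = 0.056 over 13403 probe sets, so the numbers are not taken to pair the arrays. The neural list had no gene bright enough with values as deposited or a floor of 300 and gave no value there. Below, list names are shortened: large and small are the subunits, bacterial and specific the origin of the proteins, and the 5 lists the genes that serve the ribosome, counted together.

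Without the trend in limma, lower genes numbered 0 (members), 0 (Mrpl), 0 (Mrps), 0 (other names), 0 (large bacterial), 0 (large specific), 0 (small bacterial), 0 (small specific), 0 (assembly), 1 (cytosolic ribosome), 7 (respiratory chain), 0 (the 5 lists). Without the trend in limma, higher genes numbered 0 (proteasome). With a floor of 300, lower genes numbered 3 (assembly), 4 (the 5 lists). With a floor of 300, medians were 0.12 (other names), -0.21 (factors), -0.010 (assembly), -0.095 (DNA upkeep), -0.095 (the 5 lists). With probe sets averaged per gene, lower genes numbered 2 (assembly), 1 (DNA upkeep), 1 (proteasome), 4 (the 5 lists). With probe sets averaged per gene, medians were -0.17 (assembly), -0.079 (regulators). With median scaling, lower genes numbered 1 (members), 1 (Mrpl), 0 (Mrps), 0 (large bacterial), 1 (large specific), 0 (small bacterial), 0 (small specific), 0 (assembly), 5 (cytosolic ribosome), 13 (respiratory chain), 1 (the 5 lists). With median scaling, higher genes numbered 1 (members), 1 (Mrpl), 1 (large bacterial), 2 (regulators), 1 (cytosolic ribosome), 1 (respiratory chain), 3 (proteasome). With median scaling, medians were 0.10 (all genes), 0.0040 (members), 0.015 (Mrpl), 0.0040 (Mrps), 0.15 (other names), 0.0011 (large bacterial), -0.0016 (large specific), 0.076 (small bacterial), -0.086 (small specific), -0.11 (factors), 0.14 (synthetases), 0.083 (assembly), 0.0042 (DNA upkeep), 0.15 (regulators), -0.070 (cytosolic ribosome), -0.17 (respiratory chain), 0.19 (proteasome), -0.016 (the 5 lists). Without probe sets ending in _x_at or _s_at, lower genes numbered 1 (Mrps), 0 (small bacterial), 0 (assembly), 1 (the 5 lists). Without probe sets ending in _x_at or _s_at, higher genes numbered 0 (assembly), 2 (proteasome), 0 (the 5 lists). Without probe sets ending in _x_at or _s_at, medians were -0.15 (synthetases), -0.17 (assembly). Without a floor, lower genes numbered 3 (members), 2 (Mrpl), 1 (Mrps), 1 (large bacterial), 1 (large specific), 0 (small specific), 0 (assembly), 6 (cytosolic ribosome), 15 (respiratory chain), 1 (the 5 lists). Without a floor, higher genes numbered 0 (proteasome). Without a floor, medians were -0.14 (synthetases), -0.11 (regulators). With a pseudocount of 1, medians were -0.33 (factors). With a pseudocount of 200, medians were -0.16 (factors), -0.10 (DNA upkeep), -0.12 (the 5 lists). With quantile normalisation, higher genes numbered 2 (cytosolic ribosome), 1 (respiratory chain). With quantile normalisation, medians were -0.23 (Mrps), -0.071 (other names), -0.15 (small bacterial), -0.30 (small specific), -0.19 (factors), -0.071 (cytosolic ribosome), -0.26 (respiratory chain). With the replicate block, lower genes numbered 2 (small specific), 4 (assembly), 1 (DNA upkeep), 26 (cytosolic ribosome), 45 (respiratory chain), 3 (proteasome), 6 (the 5 lists). With the replicate block, higher genes numbered 1 (regulators), 1 (cytosolic ribosome), 2 (proteasome). With values as deposited, lower genes numbered 2 (assembly). With values as deposited, medians were 0.11 (other names), -0.16 (factors), 0.0026 (assembly), -0.094 (DNA upkeep), -0.061 (the 5 lists).

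With 1 array left out, lower genes numbered 0 to 3 (members), 1 to 6 (cytosolic ribosome), 0 to 2 (Mrpl), 0 to 1 (large bacterial), 0 to 2 (large specific), 0 to 1 (other names), 0 to 1 (assembly), 0 to 2 (the 5 lists), 0 to 1 (proteasome), 8 to 15 (respiratory chain), 0 to 2 (Mrps), 0 to 1 (small bacterial), 0 to 1 (small specific). With 1 array left out, higher genes numbered 0 to 1 (cytosolic ribosome), 0 in each fit (proteasome). With 1 array left out, medians were -0.20 to -0.13 (members), -0.29 to -0.17 (cytosolic ribosome), -0.21 to -0.13 (large bacterial), -0.25 to -0.092 (large specific), -0.22 to -0.11 (DNA upkeep), -0.20 to 0.011 (synthetases), -0.38 to -0.17 (factors), -0.10 to 0.091 (other names), -0.22 to -0.069 (assembly), -0.23 to -0.13 (the 5 lists), -0.063 to 0.044 (proteasome), -0.061 to 0.12 (regulators), -0.37 to -0.27 (respiratory chain), -0.20 to -0.12 (Mrps), -0.14 to -0.030 (small bacterial), -0.32 to -0.19 (small specific).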
